A study of Mus musculus with 160 samples.

Results

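The 10 genes described here encode inflammasome sensors, their adaptor, the inflammatory caspases, the pore-forming effector of pyroptosis and an inflammasome cytokine with its inhibitor. They are *Nlrp3*, *Nlrp6*, *Aim2*, *Mefv*, *Pycard*, *Casp1*, *Casp4*, *Gsdmd*, *Il18* and *Il18bp*, chosen by name for their place in this pathway and found by Ensembl identifier among the 39179 genes of the count files. All 10 were measured in all 160 RNA-seq libraries of mouse distal colon, and no library held 3 or fewer counts of any of them.

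An inflammasome is a protein assembly built in the cytosol when a sensor meets a microbial product or a sign of damage. The sensor recruits the adaptor ASC, the product of *Pycard*, which gathers and activates caspase-1, and caspase-1 then matures interleukin-18 and interleukin-1β and cuts gasdermin D, whose fragment opens pores and ends the cell by pyroptosis. Caspase-11, the product of mouse *Casp4*, takes a separate route: it binds cytosolic lipopolysaccharide itself and cuts gasdermin D without an adaptor. In the colon the epithelium is a known source of NLRP6, caspase-1 and interleukin-18, whereas NLRP3 and pyrin, the product of *Mefv*, are mostly studied in neutrophils and macrophages.

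The libraries came from 4 lines of knockout mice with wild-type controls, made to study genes predicted to drive inflammatory bowel disease in dextran sulfate sodium (DSS) colitis. In the *Nckap1l* line (C57BL6/J, collected on day 12, no dose given in the labels) there were 16 knockout and 15 wild-type mice, 4 and 8 of them female. In the *Dock2* line (C57BL6/J, 3% DSS, day 10) there were 18 knockout and 24 wild-type mice, 8 and 12 of them female. The *Gpsm3* line (C57BL6/J, 3% DSS, day 10) had 20 of each genotype and the *Dok3* line (129, 3.5% DSS, day 10) had 26 knockout and 21 wild-type mice, all labelled male. By the methods of the study, each line was re-derived from a knockout male with C57BL6/J females and bred between heterozygotes, and the sources used here do not say how much C57BL6/J background the *Dok3* mice, labelled 129, carry. The methods also give *Nckap1l* mice a slightly lower dose than 3%, and *Dok3* mice 3% in a first round of experiments before 3.5%. The labels give 3.5% for all *Dok3* libraries. Neither the labels nor the methods say which mice of a line received DSS, so treated and untreated mice were pooled in every comparison.

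Total counts ranged from 4344988 to 19993833 per library, so 3 counts, taken as the smallest detectable amount, stood for 0.15 to 0.69 CPM (counts scaled to library size). The mean log2 CPM of 10 colonic epithelium markers lay between 6.41 and 9.95 in all libraries. In 32 libraries skin keratinocyte markers averaged above 4 on the log2 CPM scale: 15 in the *Nckap1l* line, 5 in *Dock2*, 3 in *Gpsm3* and 9 in *Dok3*. The median of the epithelium list was 8.53 in these and 9.48 in the other 128. In the *Dok3* line 5 libraries, 3 labelled knockout and 2 wild type, expressed sex-linked genes that differ from the labelled sex. The targeted gene was lower by 2.06 (log2) in *Gpsm3* knockouts (adjusted p = 0.0001, edgeR), whereas the differences of *Nckap1l* (-1.09, adjusted p = 1.0), *Dock2* (-0.62, adjusted p = 0.21) and *Dok3* (-0.48, adjusted p = 1.0) in their own lines did not pass the test, and in all 4 lines the ranges of the genotypes overlapped, so knockout and wild type always mean the libraries labelled so.

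Per kilobase of the main annotated transcript, *Il18*, *Gsdmd* and *Casp1* stood highest and the sensors *Mefv* and *Nlrp3* lowest. *Il18* had a median of 85.0 CPM per kilobase over the 160 libraries (quartiles 65.01 and 100.6), *Gsdmd* 70.1 (63.1 and 79.2) and *Casp1* 64.4 (51.4 and 71.8). The interquartile ranges of these neighbours overlapped. *Nlrp6* followed at 37.8 (27.6 and 48.4), then *Aim2* at 24.5 (21.4 and 27.0), *Casp4* at 24.1 (16.8 and 30.5) and *Pycard* at 19.1 (16.3 and 22.0). Again *Aim2*, *Casp4* and *Pycard* overlapped, and *Nlrp6* overlapped with *Casp4* but not with *Aim2* or *Pycard*. *Il18bp* stood at 8.37 (7.38 and 10.3), *Mefv* at 1.07 (0.668 and 2.51) and *Nlrp3* at 0.512 (0.355 and 1.24), and only the last pair overlapped. Divided by the length of all annotated exons instead, *Casp4* fell to 9.31 and changed places with *Pycard*, and *Casp1* with *Gsdmd*. *Pycard* was divided by 3800 bases in both cases, so its place rests on this annotated length.

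The spread between mice was widest for *Nlrp3* and *Mefv*, the members of lowest level. *Nlrp3* ran from 0.395 to 146.6 CPM, a 371-fold range, and *Mefv* from 0.805 to 79.1 CPM, a 98.3-fold range. *Nlrp6* spanned 76.2-fold, from 5.37 to 409.1 CPM, with its lowest value in a *Dok3* knockout library that held skin RNA. Among the 128 libraries without skin RNA its lowest value was 13.9 CPM. *Casp4* spanned 9.98-fold and the remaining 6 members between 3.17-fold (*Pycard*) and 7.10-fold (*Il18*). Except for *Nlrp3* and *Mefv*, the lowest value of every member fell in a library with skin RNA. Within a line, the SD of log2 CPM averaged 1.54 for *Nlrp3* and 1.34 for *Mefv*, against 0.23 for *Pycard*.

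**Figure D1:**
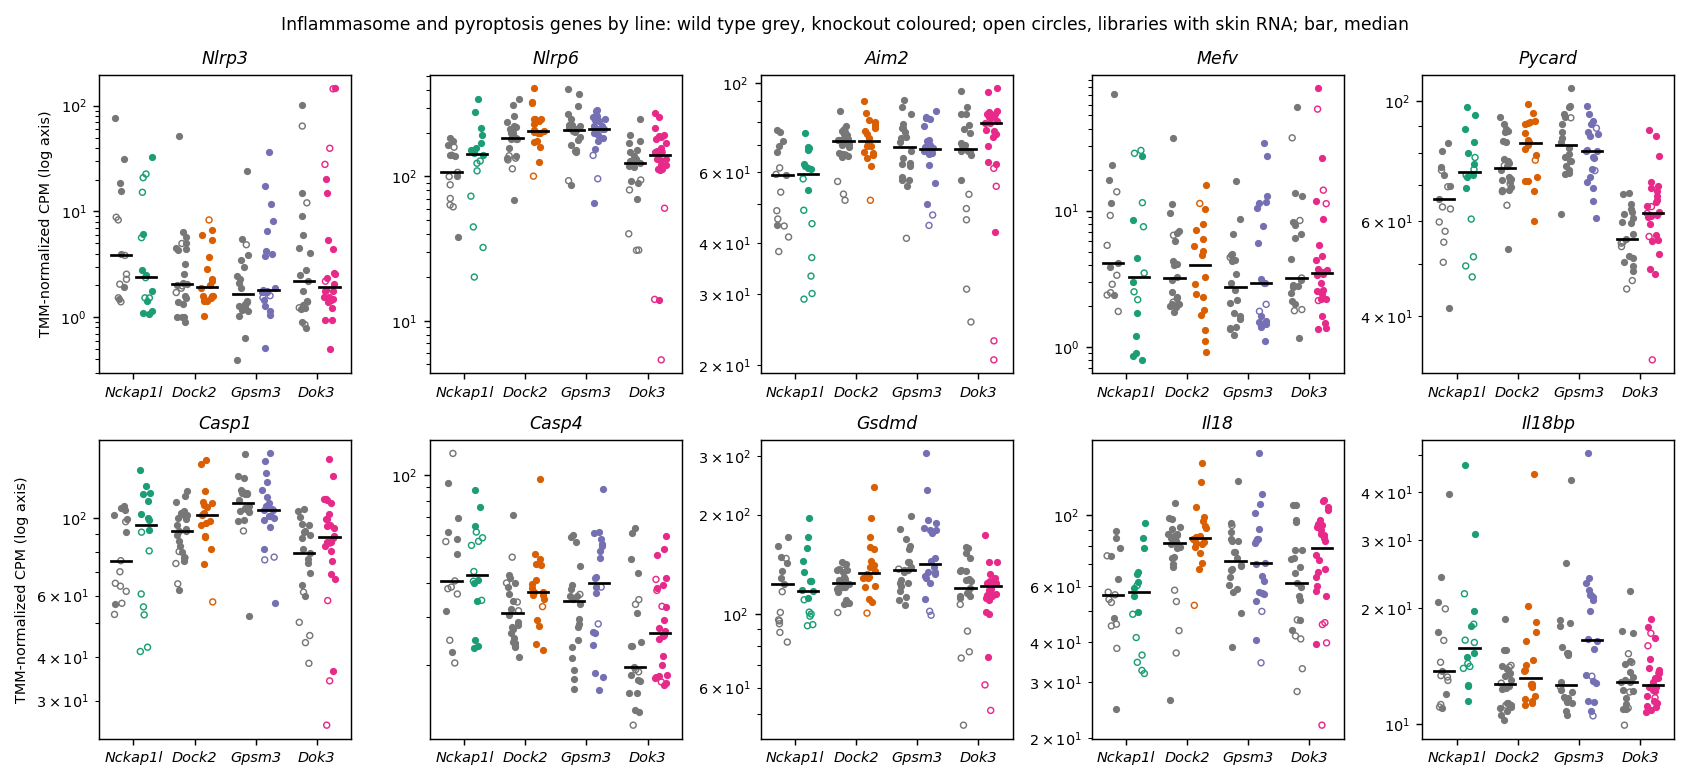
TMM-normalized CPM (log axis) of the 10 members in each library by line, with wild type in grey, knockout in colour, medians as bars and the 32 libraries with skin RNA as open circles. Within every line the genotypes overlap, *Nlrp3* spans 0.395 to 146.6 CPM and *Mefv* 0.805 to 79.1 CPM, and *Pycard* sits lower in the *Dok3* line than in the other lines.

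*Nlrp3* (ENSMUSG00000032691, chr11:59541568-59566956, plus strand, GRCm38 as for all genes here) encodes the sensor best known for responding to potassium efflux and membrane damage. Its median was 2.43 CPM in *Nckap1l* knockouts (range 1.08 to 32.4) and 3.84 in their wild types (1.40 to 76.0). *Dock2* medians were 1.95 CPM in knockouts (1.03 to 8.31) and 2.05 in wild types (0.906 to 51.6). In the *Gpsm3* line they were 1.80 CPM (0.510 to 36.5) and 1.66 (0.395 to 24.1), and in the *Dok3* line 1.93 (0.500 to 146.6) and 2.195 (0.790 to 101.8). In each group the highest mouse thus lay several times above the median, and the genotypes of each line overlapped. *Mefv* (ENSMUSG00000022534, chr16:3707218-3718097, minus strand) encodes pyrin, a sensor that responds to bacterial toxins. Its group medians ran only from 2.78 CPM (*Gpsm3* wild type) to 4.14 CPM (*Nckap1l* wild type), whereas the highest library of a group ranged from 15.4 CPM (*Dock2* knockout) to 79.1 CPM (*Dok3* knockout).

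*Nlrp6* (ENSMUSG00000038745, chr7:140920902-140929192, plus strand), a sensor studied for its part in mucus secretion and the control of the gut microbiota, had medians of 143 CPM in *Nckap1l* knockouts (20.1 to 344) and 107 in wild types (37.8 to 185). *Dock2* medians were 208 CPM (100.5 to 409.1) and 185 (68.9 to 343). In the *Gpsm3* line they were 214 CPM (66.0 to 287) and 210 (86.8 to 402), and in the *Dok3* line 140 (5.37 to 274) and 124 (30.8 to 251). The *Dok3* and *Nckap1l* groups sat below the *Dock2* and *Gpsm3* groups, with overlapping ranges. Skin RNA was present in 9 of 47 *Dok3* and 15 of 31 *Nckap1l* libraries, against 5 of 42 and 3 of 40. The *Nlrp6* median was 94.0 CPM in libraries with skin RNA and 185.6 CPM in the others. The part of skin RNA in the order of the lines was not tested. *Aim2* (ENSMUSG00000037860, chr1:173350879-173466040, plus strand), the sensor of cytosolic DNA, was steadier: its group medians ran from 59.1 CPM (*Nckap1l* wild type) to 79.4 CPM (*Dok3* knockout). Its median was 46.5 CPM in libraries with skin RNA and 72.0 CPM in the others. Its gene overlaps *Cadm3* on the other strand, and the sources used here do not say whether counting used strand.

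*Pycard* (ENSMUSG00000030793, chr7:127989708-127993867, minus strand), the adaptor, had the narrowest spread of the members. Its median was 73.8 CPM in *Nckap1l* knockouts (47.3 to 97.4) and 65.9 in wild types (41.5 to 83.7). It was 83.4 CPM (60.0 to 98.5) and 75.2 (53.4 to 93.2) in the *Dock2* line, and in the *Gpsm3* line 80.8 (60.7 to 97.9) and 82.7 (61.7 to 105.5). In the *Dok3* line it was 62.1 CPM in knockouts (33.2 to 88.2) and 55.6 in wild types (44.9 to 67.7). Both *Dok3* medians lay below those of the other 6 groups.

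*Casp1* and *Casp4* are neighbours on chromosome 9 (GRCm38). *Casp1* (ENSMUSG00000025888, chr9:5298517-5307265, plus strand) lies just before *Casp4* (ENSMUSG00000033538, chr9:5308828-5336783, plus strand). The 300 bases from 250 before to 50 after the annotated start of each are shown because the pair behaved differently across mice (RefSeq, GRCm38.p6, plus strand, chr9:5298267-5298566 and chr9:5308599-5308898). Capitals mark matches to the NF-kB core (GGG, any 3 bases, TTCC) on either strand.
*Casp1*: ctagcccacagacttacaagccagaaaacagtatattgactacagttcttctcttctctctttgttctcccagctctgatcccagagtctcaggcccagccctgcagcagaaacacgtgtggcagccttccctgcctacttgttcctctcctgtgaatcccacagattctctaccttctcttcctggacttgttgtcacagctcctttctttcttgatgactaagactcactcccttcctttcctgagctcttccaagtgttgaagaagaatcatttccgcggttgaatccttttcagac
*Casp4*: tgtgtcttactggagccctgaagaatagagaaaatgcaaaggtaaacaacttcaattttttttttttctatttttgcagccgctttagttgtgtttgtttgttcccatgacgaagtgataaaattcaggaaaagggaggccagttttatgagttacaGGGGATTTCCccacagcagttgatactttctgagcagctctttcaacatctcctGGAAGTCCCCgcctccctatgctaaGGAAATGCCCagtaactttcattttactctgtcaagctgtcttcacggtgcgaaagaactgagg

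The *Casp4* window holds 3 matches, starting at -93, -39 and -14 from the start site, and the *Casp1* window none. Across the 32851 windows of the RefSeq table, some of them from the same gene, 5.56% hold at least 1 match and 7, or 0.0213%, hold 3 or more, 2 of which are the overlapping *Casp4* windows. The same search for an interferon-stimulated response element core (GAAA, any 2 bases, GAAA, in 3.44% of windows) and a gamma-activated site core (TTCNNNGAA, in 8.3%) found no match in the windows of the 9 members listed, and *Gsdmd* was not in the table. A match of letters is no evidence of binding, and its absence from these windows says nothing about a factor.

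*Casp1* had medians of 95.6 CPM in *Nckap1l* knockouts (41.5 to 136.8) and 75.5 in wild types (53.0 to 108.5). *Dock2* medians were 102.3 CPM (57.5 to 146) and 91.6 (62.3 to 119.6). In the *Gpsm3* line they were 105.2 CPM (56.99 to 153) and 110.6 (52.3 to 152.6), and in the *Dok3* line 88.4 (25.5 to 147) and 79.6 (38.4 to 105.8). *Casp4*, in contrast, was highest in the *Nckap1l* line, with medians of 42.7 CPM in knockouts (23.1 to 87.9) and 40.8 in wild types (20.4 to 120.1). It stood at 37.3 CPM (22.8 to 97.0) and 31.1 (21.5 to 71.1) in the *Dock2* line and at 40.2 (16.2 to 88.9) and 34.3 (16.4 to 60.0) in the *Gpsm3* line. In the *Dok3* line it was 26.3 CPM in knockouts (16.9 to 59.5) and 19.6 in wild types (12.0 to 64.1), the lowest group medians of the 8, again with overlapping ranges. Many 129 stocks are known to carry a *Casp4* allele whose transcript is misspliced, and counts summed over a gene do not show splicing.

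*Gsdmd* (ENSMUSG00000022575, chr15:75862327-75867408, plus strand), the pore former, varied little between groups, with medians from 117.8 CPM (*Nckap1l* knockout) to 141.8 CPM (*Gpsm3* knockout). *Il18* (ENSMUSG00000039217, chr9:50554827-50581840, plus strand) had group medians from 56.2 CPM (*Nckap1l* wild type) to 85.0 CPM (*Dock2* knockout). Its median was 45.2 CPM in libraries with skin RNA and 79.3 CPM in the others. *Bco2* and *Tex12* overlap *Il18* on the other strand. *Il18bp* (ENSMUSG00000070427, chr7:102014885-102018690, minus strand), which encodes a secreted decoy that binds interleukin-18 and is known to be induced by interferon-γ, had medians from 12.7 CPM (in *Dock2* and *Gpsm3* wild types and *Dok3* knockouts) to 16.5 CPM (*Gpsm3* knockout). Its highest libraries reached 50.5 CPM in *Gpsm3* knockouts, 47.2 in *Nckap1l* knockouts and 44.7 in *Dock2* knockouts, but 18.8 in *Dok3* knockouts. In wild types the highest reached 43.1 CPM in *Gpsm3*, 39.7 in *Nckap1l*, 18.7 in *Dock2* and 22.1 in *Dok3*. *Numa1* overlaps *Il18bp* on the other strand.

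Across the mice of a line, some members were correlated with markers of inflammation, some with markers of epithelium, and *Gsdmd* with both the interferon and the epithelium list. Without the 32 libraries with skin RNA, *Gsdmd* was called with the epithelium list in 0 lines (r -0.306 to 0.367). The relations were examined by correlating log2 CPM of each member with the mean log2 CPM of a neutrophil list, an interferon response list and a colonic epithelium list, none of which holds a member. The family comprised 120 correlations, of which 77 passed a Benjamini-Hochberg adjusted p of 0.05 for Pearson's r and 71 for Spearman's rho, each from a 2-sided permutation test with 100000 resamples. In bulk tissue, fewer cells of a type and less RNA per cell cannot be told apart, and all genes of a library share its composition and depth.

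*Nlrp3* followed the neutrophil list most closely. In the 4 lines its r ranged from 0.924 to 0.959 and its rho from 0.861 to 0.899, with p = 1e-05 throughout, the smallest these permutations can give (adjusted p = 3.75e-05 for r). *Mefv* had r from 0.894 to 0.938 and rho from 0.814 to 0.853, with the same p. Without the 2 libraries farthest from the median of the list, r ranged from 0.894 to 0.942 for *Nlrp3* and from 0.852 to 0.911 for *Mefv*. *Casp4* had r from 0.496 to 0.621 (rho 0.435 to 0.688) and was called in 4 of 4 lines, its largest adjusted p being 0.00263 for r and 0.00912 for rho. *Il18bp* had r from 0.347 to 0.555 (rho 0.310 to 0.668), called in 4 lines by r (largest adjusted p = 0.0413) and in 3 by rho (0.0736). Within the 8 blocks of consecutive sample numbers, rho with this list was above 0 in 8 of 8 for each of these 4 genes, from 0.619 to 0.967 for *Nlrp3* and from 0.690 to 0.917 for *Mefv*.

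*Casp4* and *Il18bp* had a higher r with the interferon list than with the neutrophil list in each of the 4 lines, though this difference was not tested. For *Casp4* in the *Dok3* line the order turned without skin RNA libraries by rho (0.614 with the interferon list and 0.701 with the neutrophil list) and in the first block of sample numbers by r (0.691 and 0.749) and rho (0.571 and 0.684). For *Il18bp* r ranged from 0.794 to 0.887 (rho 0.688 to 0.905), and for *Casp4* from 0.740 to 0.868 (rho 0.672 to 0.886), with a largest adjusted p of 3.75e-05 for r and 4.14e-05 for rho. Without the 2 farthest libraries r ranged from 0.705 to 0.864 for *Il18bp* and from 0.625 to 0.840 for *Casp4*. *Nlrp3* (r 0.445 to 0.635, rho 0.458 to 0.671) and *Mefv* (r 0.420 to 0.685, rho 0.417 to 0.698) were also called in 4 lines. *Gsdmd* was called in 3 lines by r (0.150 to 0.682) and in 2 by rho (0.201 to 0.700). Its call by r in the *Dock2* line (0.585) was lost without the 2 farthest libraries (0.251, adjusted p = 0.17). *Nlrp6*, *Pycard*, *Casp1* and *Il18* were called in no line by r, and *Il18* in 1 line, negatively, by rho. *Aim2* was called negatively in the *Dok3* line by both measures (r -0.315, adjusted p = 0.0456) and positively in the *Gpsm3* line by rho (0.389, adjusted p = 0.0256).

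**Figure D2:**
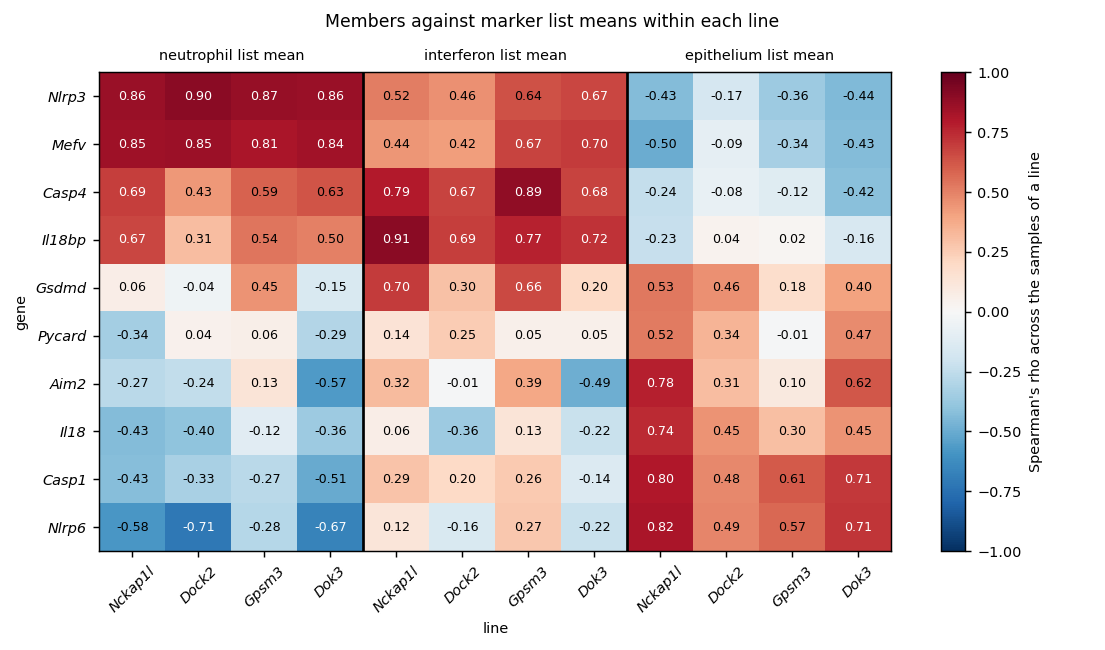
Spearman's rho of log2 CPM of each member (rows) with the mean of the neutrophil, interferon and epithelium lists (column blocks) over the mice of each line (columns), from blue for -1 to red for 1. *Nlrp3* and *Mefv* lie above 0.81 with the neutrophil list in all 4 lines, while *Nlrp6* and *Casp1* are negative there and positive with the epithelium list.

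*Nlrp6* and *Casp1* ran the other way. *Nlrp6* correlated positively with the epithelium list in all 4 lines (r 0.556 to 0.918, rho 0.490 to 0.818, largest adjusted p = 0.000522 for r and 0.00333 for rho) and negatively with the neutrophil list (r called in 4 lines, rho in 3). *Casp1* had r from 0.623 to 0.910 with the epithelium list (rho 0.484 to 0.799) and from -0.583 to -0.409 with the neutrophil list (rho -0.507 to -0.266, called in 2 lines). *Il18* (r 0.549 to 0.777, rho 0.299 to 0.743) and *Aim2* (r 0.553 to 0.904, rho 0.0972 to 0.779) were called with the epithelium list in 4 lines by r, and in 3 and 2 lines by rho. *Gsdmd* was called in 3 lines and *Pycard* in 2 by r. Skin RNA goes with a low epithelium list: without the 32 libraries, positive calls by r with the epithelium list remained in 3 lines for *Nlrp6*, 2 for *Casp1*, 2 for *Il18*, 1 for *Aim2* and 0 for *Gsdmd* and *Pycard*, the r of *Casp1* ranging from 0.314 to 0.793. By rho, calls of *Casp1* and *Nlrp6* in *Gpsm3* and *Dok3* were kept. Calls were lost for *Nlrp6* in *Nckap1l* (adjusted p = 0.126), *Aim2* in *Dok3* (0.153) and *Il18* in *Nckap1l* and *Gpsm3* (0.628 and 0.255). Without the 2 farthest libraries too, r of *Casp1* was -0.626 in *Nckap1l*, 0.209 in *Dock2*, 0.552 in *Gpsm3* and 0.519 in *Dok3*. That of *Nlrp6* was 0.0282, 0.287, 0.349 and 0.517. Without the 32 libraries the negative calls by r with the neutrophil list fell from 4 lines to 2 for *Casp1* and from 3 to 1 for *Il18*, and the positive calls of *Il18bp* with that list from 4 to 3 (*Dock2* adjusted p = 0.0534). By rho the remaining negative calls were lost for *Casp1* in *Gpsm3* (adjusted p = 0.43) and *Dok3* (0.0965) and for *Il18* in *Dock2* (0.0958). The calls in 4 lines were kept, with r from 0.926 to 0.974 for *Nlrp3* and from 0.912 to 0.948 for *Mefv* against the neutrophil list, and from 0.807 to 0.908 for *Il18bp* and from 0.759 to 0.884 for *Casp4* against the interferon list.

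**Figure D3:**
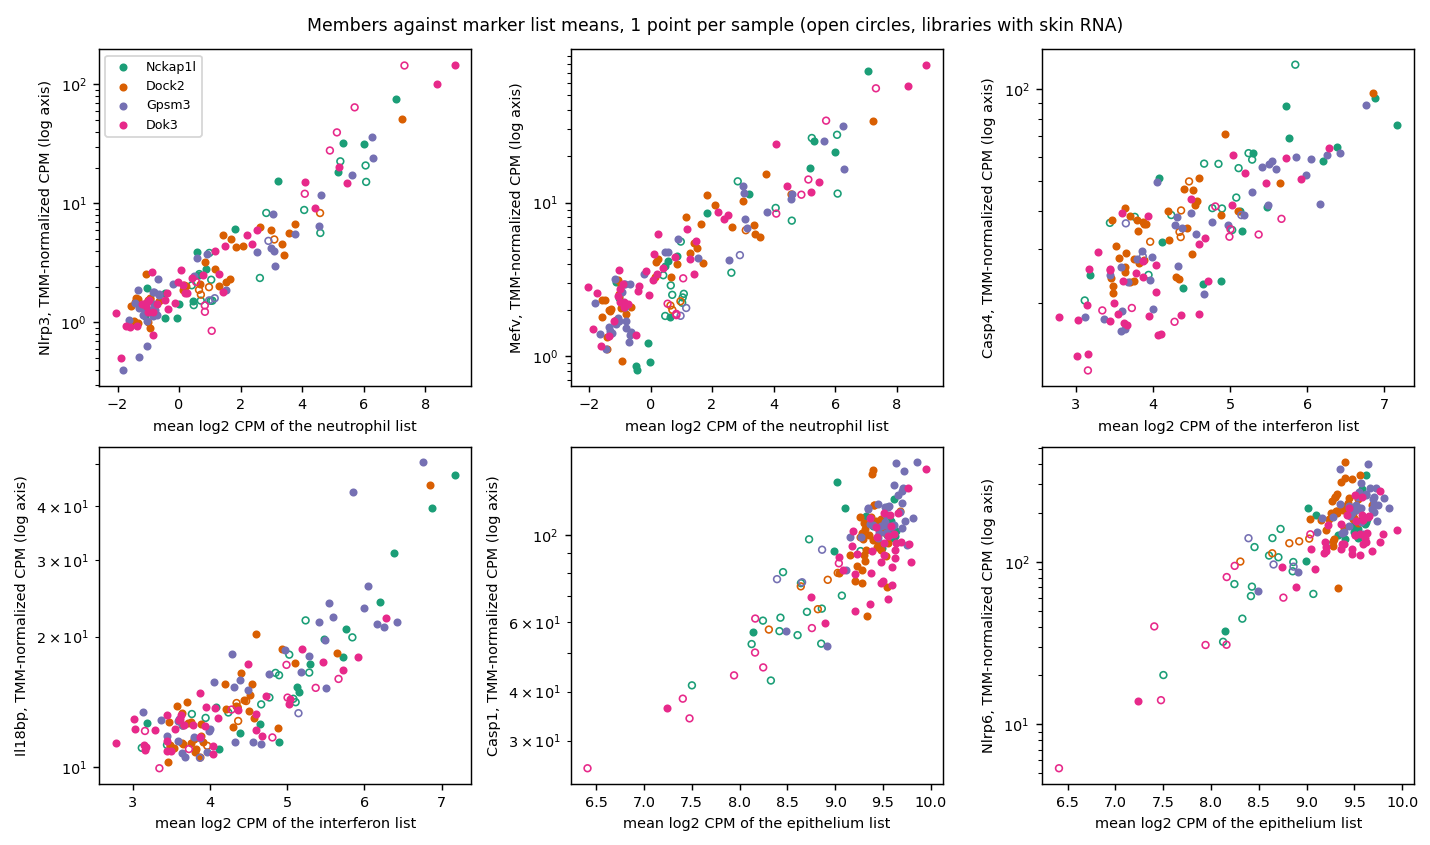
TMM-normalized CPM (log axis) of 6 members against the mean log2 CPM of 1 marker list each, with 1 point per library, colours for lines and open circles for the 32 libraries with skin RNA. *Nlrp3* and *Mefv* climb along the neutrophil list, *Casp4* and *Il18bp* along the interferon list, and the open circles lie mostly at the lower end of the epithelium list, where *Casp1* and *Nlrp6* are low.

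Members were also correlated with each other. Of 45 pairs, each tested in 4 lines (180 correlations), *Nlrp3* and *Mefv* were the closest, with r from 0.867 to 0.950 and rho from 0.777 to 0.904. *Casp1* and *Nlrp6* had r from 0.733 to 0.911 (rho 0.686 to 0.879), and *Casp4* and *Il18bp* r from 0.664 to 0.811 (rho 0.509 to 0.835), all called in 4 lines with a largest adjusted p of 0.00109 for rho in these 3 pairs. Their r without the 2 farthest libraries ranged from 0.822 to 0.929, from 0.684 to 0.876 and from 0.571 to 0.795. Within the 8 blocks rho ranged from 0.714 to 0.952, from 0.550 to 0.879 and from 0.440 to 0.873. The neighbours *Casp1* and *Casp4* were called in 0 of 4 lines (r -0.0652 to 0.200, rho -0.0964 to 0.303, smallest adjusted p = 0.277 for r). *Il18* and its inhibitor *Il18bp* were also called in 0 lines (r -0.146 to 0.105, rho -0.132 to 0.112).

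The genes most like each member over the 160 libraries, after the mean of each line was removed, were ranked by rho among 16769 genes of at least 1 CPM on average. This is a description over libraries that share their composition, with no test. For *Nlrp3* they were *Plek* (0.914), *Il1b* (0.913) and *Slc15a3* (0.911), and for *Mefv* *Rel* (0.906), *Plek* (0.904) and *Arhgap30* (0.901). *Il1b* encodes the other cytokine matured by caspase-1. For *Casp4* they were *Socs1* (0.812), *Nos2* (0.807) and *Tlr4* (0.805), which encode a brake on cytokine signalling, inducible nitric oxide synthase and the lipopolysaccharide receptor. For *Il18bp* they were *Psme1* (0.858), *Psmb8* (0.837) and *Psmb9* (0.824), which encode a proteasome activator and immunoproteasome subunits. For *Casp1* they were *Btnl5-ps* (0.932), *Btnl4* (0.909) and *Adgrg7* (0.904), the first 2 from a butyrophilin-like family of similar genes, whose counts are uncertain for that reason. *Nlrp6* was closest to *Styk1* (0.872), *Bcl2l14* (0.853) and *Sectm1b* (0.852), and *Aim2* to *Tnfrsf11a* (0.832), *Jakmip1* (0.824) and *Grtp1* (0.811). *Gsdmd* was closest to *Trim26* (0.817), *Ms4a8a* (0.811) and *Rnf128* (0.811), and *Pycard* to *Esrp1* (0.646), *Mgam* (0.646) and *Tmprss4* (0.641). The gene closest to *Il18* was *Bco2* (0.744), which overlaps it, followed by *Cd2ap* (0.729) and *Trp53i11* (0.716). Without the 32 libraries with skin RNA the first gene of each list fell to 0.601 for *Aim2*, 0.845 for *Casp1* and 0.760 for *Nlrp6*, and stood at 0.896 for *Nlrp3* and 0.834 for *Casp4*.

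Knockout and wild-type mice were compared line by line to ask whether loss of a predicted driver gene shifts these genes. None of the 10 members passed an adjusted p of 0.05 in edgeR's quasi-likelihood test in any line. At an unadjusted p under 0.05 there were 0 members in the *Nckap1l* line, 3 in *Dock2* (*Gsdmd*, *Il18* and *Il18bp*, all higher in knockouts), 1 in *Gpsm3* (*Mefv*, higher) and 1 in *Dok3* (*Pycard*, higher), against 4.5%, 5.1%, 4.86% and 2.19% of all genes tested. DESeq2 and limma-voom called 0 of the 10 in every line. Among all genes tested, edgeR called 0.0% in the *Nckap1l* line (0 of 17947), 0.034% in *Dock2* (6 of 17648), 0.00569% in *Gpsm3* (1 of 17560) and 0.0% in *Dok3* (0 of 17612).

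The differences, knockout minus wild type, were estimated with very different precision. For *Pycard* in the *Dock2* line the log2 fold change was 0.10 with a standard error of 0.0513, and for *Aim2* 0.06 with 0.0516. For *Nlrp3* it was -0.65 (standard error 0.648) in the *Nckap1l* line, -0.60 (0.411) in *Dock2*, 0.77 (0.485) in *Gpsm3* and 0.58 (0.701) in *Dok3*, with 95% intervals of about -1.92 to 0.62, -1.41 to 0.21, -0.18 to 1.72 and -0.80 to 1.95. Sizable differences of *Nlrp3* in either direction lie within the *Nckap1l* and *Dok3* intervals. That of *Dock2* holds sizable falls and that of *Gpsm3* sizable rises, and differences of such size were not detectable here. The largest difference of the 40 was that of *Mefv* in the *Gpsm3* line, at 0.84 (standard error 0.417, adjusted p = 0.936). The median over the 10 members was -0.05 in the *Nckap1l* line, 0.17 in *Dock2*, 0.12 in *Gpsm3* and 0.16 in *Dok3*, against medians of all genes between -0.01 and 0.01. In the *Dock2* line *Il18bp* stood at 0.27 (standard error 0.118, adjusted p = 0.904), *Casp4* at 0.25 (0.138, 1.0) and *Gsdmd* at 0.19 (0.069, 0.655).

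**Figure D4:**
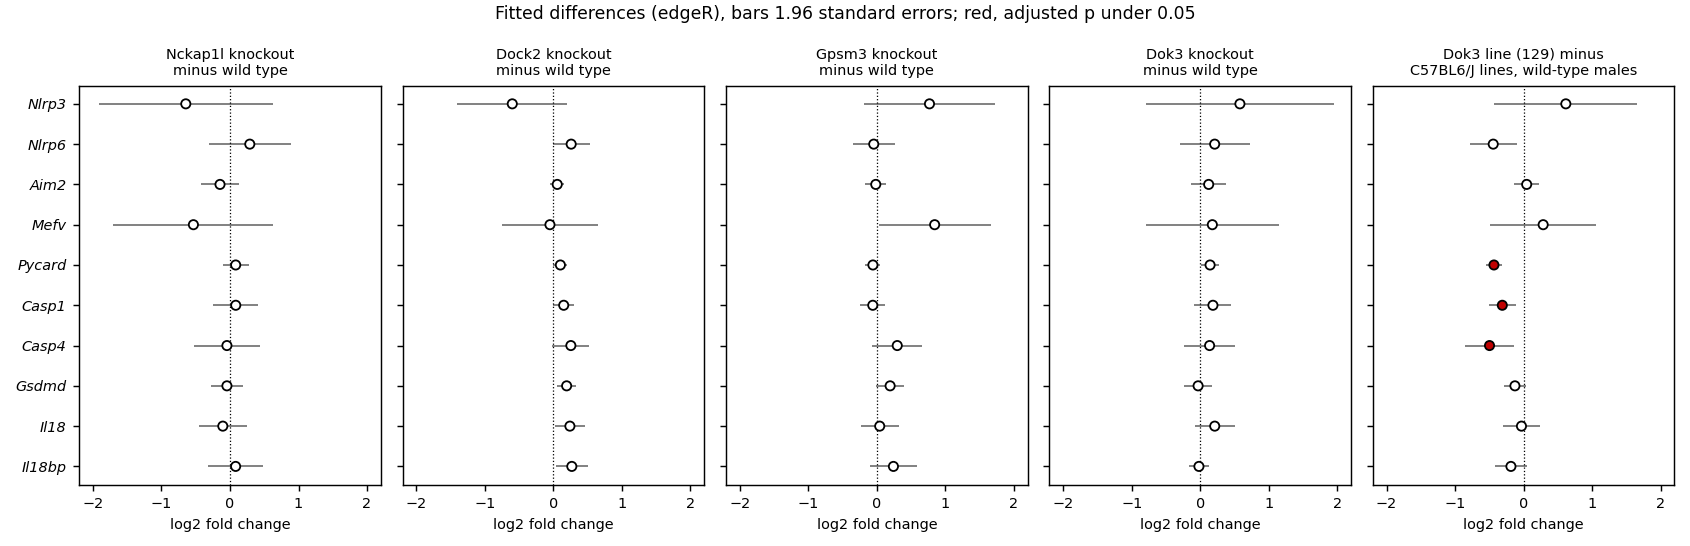
Log2 fold changes of the 10 members (rows) in the 4 knockout comparisons and between the *Dok3* line and the C57BL6/J lines (panels), with bars for 95% intervals and red points for an adjusted p under 0.05. No member is red in the knockout panels, and the bars of *Nlrp3* and *Mefv* are the widest, while *Pycard*, *Casp1* and *Casp4* are red and below 0 in the last panel.

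Whether the genotype difference varied between lines was tested by the genotype-by-line interaction over all 160 libraries. It was called for 0 of the 10 members, the smallest unadjusted p being 0.144 (*Pycard*) and all adjusted p-values 1.0, while 0.69% of all genes (137 of 19849) were called. DESeq2 and limma-voom were not run for this comparison.

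The other genes of the pathway gave as few calls. Of 20 or 21 other inflammasome sensors and regulators tested per line, 10 or 11 interleukin-1 family ligands and receptors, 12 to 14 other gasdermins and lytic death effectors and 18 interferon-inducible genes, edgeR called 0 in each of the 4 knockout comparisons. At an unadjusted p under 0.05 there were 12 of 18 interferon-inducible genes in the *Dock2* line, 13 of 18 in *Gpsm3* and 0 in the other lines. Of all genes tested, 5.1% in *Dock2*, 4.86% in *Gpsm3*, 4.5% in *Nckap1l* and 2.19% in *Dok3* had such a p. Interferon-inducible genes share a response, so these counts do not stand for separate results. The sensors and regulators had 2 in *Nckap1l* and 3 in *Dock2*, the death effectors 1 each in *Dock2* and *Gpsm3*, and the remaining lists and lines 0. DESeq2 and limma-voom called 0 in each list and line. The gene of smallest p among the sensors and regulators of the *Nckap1l* line was *Nlrc4*, the sensor adaptor for flagellin, at -0.27 (standard error 0.120, adjusted p = 1.0). The median log2 fold changes of the interferon-inducible genes were 0.652 in *Gpsm3* and 0.415 in *Dock2* knockouts, and 0.161 and 0.0157 in *Nckap1l* and *Dok3* knockouts.

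Between strains, the wild-type males of the *Dok3* line (129, 21 mice) were set against those of the 3 C57BL6/J lines (39 mice: 7 *Nckap1l*, 12 *Dock2* and 20 *Gpsm3*), each C57BL6/J line weighted equally. Strain cannot be told apart from line, DSS dose, collection and sequencing order. The collection day was the same in the *Dok3*, *Dock2* and *Gpsm3* lines, but later in the *Nckap1l* line, which has equal weight here. *Pycard*, *Casp1* and *Casp4* were lower in the *Dok3* line, and no member was higher. Of all 19603 genes tested, 16.1% were called, 8.97% higher and 7.16% lower in the *Dok3* line, so 3 of 10 is to be read against a large background. The median difference was -0.16 over the members and 0.02 over all genes.

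*Pycard* showed the most constant difference. Its level ranged from 44.9 to 67.7 CPM in the *Dok3* males, with a median of 55.6, and from 41.5 to 105.5 CPM in the C57BL6/J males, with a median of 79.7. Of the 39 C57BL6/J males 34 exceeded the highest *Dok3* male, and all 21 *Dok3* males lay below the C57BL6/J median. The log2 fold change was -0.43 (standard error 0.058, adjusted p = 7.08e-08, edgeR). It kept its sign in 13 of 13 settings, from -0.56 to -0.28, and was called in 12, the exception being the comparison with the 7 *Nckap1l* males alone (adjusted p = 0.0843). Among knockout males 24 of 26 in the *Dok3* line lay below the C57BL6/J median.

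*Casp1* had a median of 79.6 CPM (38.4 to 105.8) in the *Dok3* males and 105.6 CPM (52.3 to 152.6) in the C57BL6/J males, with 20 of 21 *Dok3* males below the latter. Its log2 fold change was -0.31 (standard error 0.0999, adjusted p = 0.024). It was called in 9 of 13 settings and was below 0 in all 13. The calls were lost against the *Dock2* line alone (-0.29, adjusted p = 0.247) and the *Nckap1l* line alone (-0.13, 0.785), in knockout males (-0.22, 0.177) and with the first block of *Dok3* sample numbers alone (-0.23, 0.198).

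*Casp4* had a median of 19.6 CPM (12.0 to 64.1) in the *Dok3* males and 33.5 CPM (16.4 to 93.6) in the C57BL6/J males. In the *Dok3* line 16 of 21 lay below the C57BL6/J median and 5 below the lowest C57BL6/J male, yet the highest *Dok3* males reached the upper part of the C57BL6/J range. The log2 difference of -0.50 (standard error 0.181, adjusted p = 0.0494) was just inside the threshold and was called in 6 of 13 settings, always below 0. The call was lost against each C57BL6/J line alone (-0.32 for *Gpsm3*, -0.35 for *Dock2* and -0.85 for *Nckap1l*), with the second block of *Dok3* sample numbers alone (-0.22, adjusted p = 0.613) and without a filter on low counts (-0.51, 0.0572). Without libraries with skin RNA it was -0.54 (adjusted p = 0.0803), and without libraries whose sex genes differ from the label -0.47 (0.0841). In knockout males the median was 26.3 CPM in the *Dok3* line and 39.1, 40.2 and 41.0 in the *Dock2*, *Gpsm3* and *Nckap1l* lines, a log2 fold change of -0.54 (adjusted p = 0.0101). The median interferon list mean of these knockout males was 3.94 in the *Dok3* line and 5.05 in the C57BL6/J lines. Their neutrophil list means had medians of 0.157 and 0.935, and the part of both lists in the knockout difference was not tested. The *Dok3* and C57BL6/J wild-type males had median interferon list means of 4.06 and 4.31 (log2 CPM), neutrophil list means of 0.834 and 0.577 and epithelium list means of 9.23 and 9.44, and 5 of 21 and 6 of 39 of their libraries held skin RNA. The part of these in the 3 differences was not tested, except that with the neutrophil list mean as a covariate all 3 remained called and *Nlrp6* was added (-0.48, adjusted p = 0.0168).

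*Nlrp6* had medians of 123.5 CPM (30.8 to 250.9) in the *Dok3* and 183.1 CPM (37.8 to 401.6) in the C57BL6/J males, which is -0.44 in log2 (standard error 0.174, adjusted p = 0.0691). *Aim2* (0.04, standard error 0.0932) and *Il18* (-0.03, 0.136) did not pass, with intervals of -0.14 to 0.23 and -0.30 to 0.23. *Gsdmd* (-0.13, 0.0825) and *Il18bp* (-0.19, 0.120) did not pass either, although both were called, and lower, in knockout males. The knockout males of the *Dok3* line also had the lower median interferon list mean (3.94 against 5.05), whose part in these calls was not tested. *Nlrp3* stood at 0.62 (standard error 0.532, adjusted p = 0.455). It was called, and higher in the *Dok3* line, against the *Gpsm3* line alone (1.82, adjusted p = 0.0243) and in knockout males (1.80, 0.00807), while it was -0.76 at its lowest among the 13 settings.

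**Figure D5:**
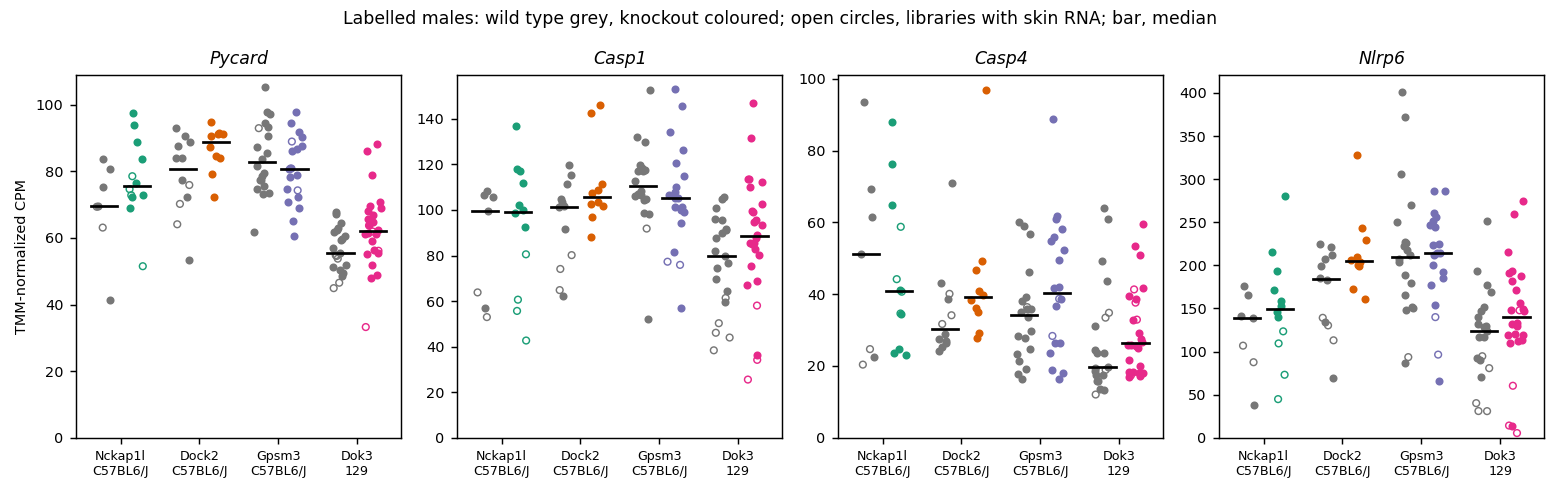
TMM-normalized CPM (linear axis from 0) of *Pycard*, *Casp1*, *Casp4* and *Nlrp6* in the labelled males of the 4 lines, with wild type in grey, knockout in colour, medians as bars and libraries with skin RNA as open circles. For *Pycard* 34 of the 39 C57BL6/J wild-type males lie above all 21 *Dok3* wild-type males, whereas the *Casp4* values of the *Dok3* males reach well into the range of the other lines.

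Among the other genes of the pathway, 6 of 22 inflammasome sensors and regulators differed between the *Dok3* and C57BL6/J wild-type males, 5 of them lower, against 16.1% of all genes called in this comparison. The smallest p belonged to *Nlrc4* (-0.72, standard error 0.108, adjusted p = 1.12e-06), followed by *Nlrp1b* (-1.05, 0.235, 0.0009), the sensor of anthrax lethal factor, and *Nlrp9b* (-0.60, 0.175, 0.012). *Nlrp1b* and *Nlrp9b* belong to families of similar copies that are known to vary between strains, so their counts are uncertain. Of 11 interleukin-1 family genes 2 were called, a share near that of all genes, both higher in the *Dok3* line: *Il18r1*, a receptor chain for interleukin-18 (0.69, standard error 0.193, adjusted p = 0.00883), and *Il1rap*, the accessory chain of the interleukin-1 receptor (0.44, 0.132, 0.0151). Of 18 interferon-inducible genes 0 were called in edgeR, DESeq2 and limma-voom, with 1 at an unadjusted p under 0.05.

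Females and males were compared in the 2 lines that have both. In the *Nckap1l* line 0 of 10 members were called by edgeR or DESeq2, with 1, *Pycard*, at an unadjusted p under 0.05 against 15.7% of all genes, and 0.178% of all genes (32 of 17947) were called. In the *Dock2* line 0 of 10 were called by either tool, although 9.75% of all genes (1721 of 17648) were, and 4 members had an unadjusted p under 0.05 against 25.6% of all genes. *Pycard* had a median of 71.6 CPM in 20 females (60.0 to 98.5) and 84.4 CPM in 22 males (53.4 to 94.9), or -0.13 in log2 for females minus males (standard error 0.0509, adjusted p = 0.0965). *Casp1* had medians of 89.0 and 103.2 CPM (-0.19, 0.0777, 0.119), *Il18* 85.2 and 81.3 CPM (0.24, 0.113, 0.166) and *Nlrp3* 1.82 and 2.04 CPM (-0.85, 0.406, 0.177).

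In the *Nckap1l* line 9 of 12 female and 6 of 19 male libraries held skin RNA. In the *Dock2* line 9.75% of all genes were called between sexes, in either direction, and the list counts are to be read against this. Of the other lists there, 6 of 18 interferon-inducible genes were lower in females and 0 higher, among them *Irgm1* (-0.68, standard error 0.189, adjusted p = 0.0172), *Cxcl9* (-1.73, 0.501, 0.0229) and *Iigp1* (-1.19, 0.360, 0.0298). Of 12 other gasdermins and death effectors 4 were lower and 0 higher, among them *Gsdme* (-0.18, 0.0513, 0.018), *Mlkl* (-0.38, 0.110, 0.021) and *Ripk3* (-0.65, 0.200, 0.0313), the last 2 encoding the effector and kinase of necroptosis. The called genes of the remaining lists were *Nlrc4* (-0.17, 0.0531, 0.0364) and *Il1rn*, the interleukin-1 receptor antagonist (-0.45, 0.138, 0.0323). The median of the neutrophil list was -0.80 in females and 0.839 in males, and that of the interferon list 3.84 and 4.32. With the neutrophil list mean as a covariate, *Casp1* (-0.27, adjusted p = 0.00975) and *Mefv* (0.43, adjusted p = 0.0455) were called, the latter against a value of -0.35 without it. Without the 5 libraries with skin RNA, *Nlrp3* (-1.32, adjusted p = 0.0229), *Casp1* (-0.21, 0.0353) and *Pycard* (-0.15, 0.0429) were called, all lower in females.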

How the data were processed

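Distal colon RNA of 160 mice was sequenced, and the authors aligned reads with STAR to mm10 and counted them per gene with featureCounts (Subread). The deposited values are raw counts. Versions and strand setting were not given in the sources used here. Counts were scaled to CPM with TMM factors, except for the marker list means, which were scaled to library size alone. Log2 CPM used a prior count of 2. Knockout and wild type, females and males, strains and the interaction were tested with edgeR 4.0.16 (quasi-likelihood, filterByExpr, Benjamini-Hochberg over all genes), and the fits of both lines with females included sex. DESeq2 1.42.0, limma-voom (limma 3.58.1) and surrogate variables (sva 3.50.0) were alternatives, and the tests were checked on simulated data. Blocks are runs of sample numbers in the titles with gaps under 50. Skin RNA means a skin marker mean above 4 (log2 CPM). Permutation tests used numpy 2.4.6, with ranks from scipy 1.17.1. Replicates are separate mice. For other genes, the 3 of smallest p per list, and the 3 most alike by rho, were named. The members and lists were chosen with earlier results of these data known. The genes Il36a, Il36rn, Gbp5, Gbp6 and Flg of the lists were not analysed here. A list result between strains is not reported here.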

Additional observations from a re-analysis of the deposited data

How the results depend on the processing

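Of 590 recomputed log2 fold changes of members, 499 kept direction and side of the threshold, 66 uncalled ones changed sign, 12 lost and 12 gained a call, and 1 reversed: *Mefv* between sexes of the *Dock2* line, called at 0.43 with the neutrophil mean as covariate. Of 240 recomputed correlations 181 stayed the same, 31 lost and 7 gained a call, 20 uncalled ones changed sign, and 1 reversed: *Gsdmd* with the epithelium list in the *Nckap1l* line, at -0.306 without skin RNA libraries. Medians without TMM moved by -5.61% to 5.98%. No member was called between genotypes in any of the 13 settings of the *Nckap1l* line, 9 of *Dock2*, 11 of *Gpsm3* and 12 of *Dok3*.

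Counts of all genes called moved more, and the causes were not tested. Between genotypes of the *Nckap1l* line there were 21 with DESeq2, 27 with no filter on low counts, 82 with 2 surrogate variables, 2 in the first block and 26 in the third, against 0. In the *Dock2* line there were 70 with DESeq2, 0 with limma-voom, 31 with no filter, 10 with the neutrophil covariate, 93 with surrogate variables, 1 in males, 79 without skin RNA libraries and 120 without them and with the covariate, against 6. In the *Gpsm3* line there were 4 with DESeq2, 32 with no filter, 0 in either block, 2 without skin RNA libraries and 4 with the covariate too, against 1. In the *Dok3* line there were 3 with DESeq2, 15 with no filter and 17 in the second block, against 0. Between sexes of the *Nckap1l* line there were 192 with DESeq2, 9 without skin RNA libraries and 97 with the covariate, against 32. In the *Dock2* line there were 3202 without skin RNA libraries, against 1721, with 3 members called, and 2 members with the covariate, against 0. Between strains 5 members were called against *Gpsm3* alone, 1 against *Dock2* alone, 0 against *Nckap1l* alone and 5 in knockout males, against 3. Genes called were 727 against *Dock2* alone, 575 against *Nckap1l* alone and 1870 with the first *Dok3* block, against 3162. The interaction gave 69 in males and 390 without skin RNA libraries, against 137.

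The alternatives on skin RNA and some with the neutrophil covariate were chosen after seeing the data. Leaving out libraries whose sex genes differ from the label applied only to the *Dok3* line. No paired analysis was possible because each sample number occurs once. Which mice received DSS was not used. The lowest count of a member in any library was 7 (*Nlrp3*).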
